A study of Mus musculus with 8 samples.

Results

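Hi-C records which stretches of DNA lie close together in the nucleus: fixed chromatin is cut, neighbouring ends are joined, and each junction is read as a pair of positions. The contacts described here join positions on 1 chromosome that lie 1 Mb or more apart. They were taken as the distance bins whose lower border is at 1 Mb or above, with the 4 strand orientations of a pair summed. Of the 38 distance bins in the deposited statistics, 13 met this rule, and 10 of these held pairs. Bins are spaced at 4 per factor of 10 in distance, and those with pairs run from 1 to 1.778 Mb up to 177.8 to 316.2 Mb.

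The frequency of contact falls with distance along a chromosome. Around a megabase it reflects domains and loops, and at longer distances it reflects how A and B compartments and whole chromosome territories are folded. RING1B is the catalytic subunit of Polycomb repressive complex 1 (PRC1), which monoubiquitylates histone H2A and compacts chromatin at repressed developmental genes, some of which contact each other over long distances in embryonic stem cells. The I53A substitution is known to disable the ubiquitin ligase activity of RING1B, whereas the knockout removes the protein.

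The cells were mouse embryonic stem cells grown without feeders. The wild type (WT) was E14tg2A, of 129/Ola background and Ring1B+/+. The 2 derivative lines were Ring1B I53A/I53A (I53A) and Ring1B -/- (KO), each represented by 1 line. There were 4 WT, 2 I53A and 2 KO libraries, labelled as biological replicates, all made with formaldehyde fixation, DpnII digestion and ligation in the nucleus. Nothing in the labels says that replicates came from separate clones, so the tests measure the spread between these libraries, and a difference between genotypes cannot be told apart from a difference between lines. The comparisons ask how the loss of the protein, or of its catalytic activity, goes with chromosome folding beyond 1 Mb. The WT libraries serve in both comparisons of a line with WT, which are therefore not independent.

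Each WT library held 17469403 to 26332833 pairs at 1 Mb or more, each I53A library 39154238 or 56455101, and each KO library 50640222 or 50699381. Counting error was therefore small: the widest 95% Wilson interval of a bin's share of these pairs spanned ± 0.0177 percentage points, for counting error alone. Replicates differed by far more than that, with a chi-square per degree of freedom over the 10 bins of 386 for the KO pair and 39156 for WT 1 against WT 4. The libraries also differed in ways that cross or follow the genotypes. Pairs of the types coded RU and UR made up 25.6% to 30.6% of unique pairs in WT 1, WT 2 and I53A 2 and 43.1% to 47.2% in the other 5 libraries. The sources used here do not define these codes; they are taken here, by their usual meaning, as rescued pairs, in which a read spanning a junction is assigned to both of its parts. Read ends on chromosome 11 were 1.47 and 1.48 times the median library's in KO 1 and KO 2, and those on chromosome 15 were 1.48 and 1.49 times it in WT 1 and WT 2.

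Contacts beyond 1 Mb fell steeply from bin to bin in every library. At 1 to 1.778 Mb the level, in pairs per kb of bin width for every 1000000 intrachromosomal pairs at 1 kb or more, was 83.1, 80.8, 72.6 and 64.2 in WT 1 to 4, 65.7 and 76.4 in I53A 1 and 2, and 58.2 and 67.3 in KO 1 and 2. The KO level lay low in the WT range or below it, and KO 2 overlapped WT 4. At 10 to 17.78 Mb the same level was 5.28, 5.55, 5.28 and 5.12 in WT, 4.67 and 5.50 in I53A, against 5.18 and 5.97 in KO. Here the 3 genotypes overlapped. At 56.23 to 100 Mb it was 0.405, 0.459, 0.421 and 0.477 in WT, 0.530 and 0.550 in I53A, against 0.448 and 0.507 in KO. Both I53A libraries stood above all WT libraries in this bin. Taken as a share of all intrachromosomal pairs at 1 kb or more, 2 of the 10 bins separated I53A from WT, against 9.09% of the 22 bins from 1 kb upward that held pairs. For KO the count was 0 of 10, against 4.55%.

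**Figure D1:**
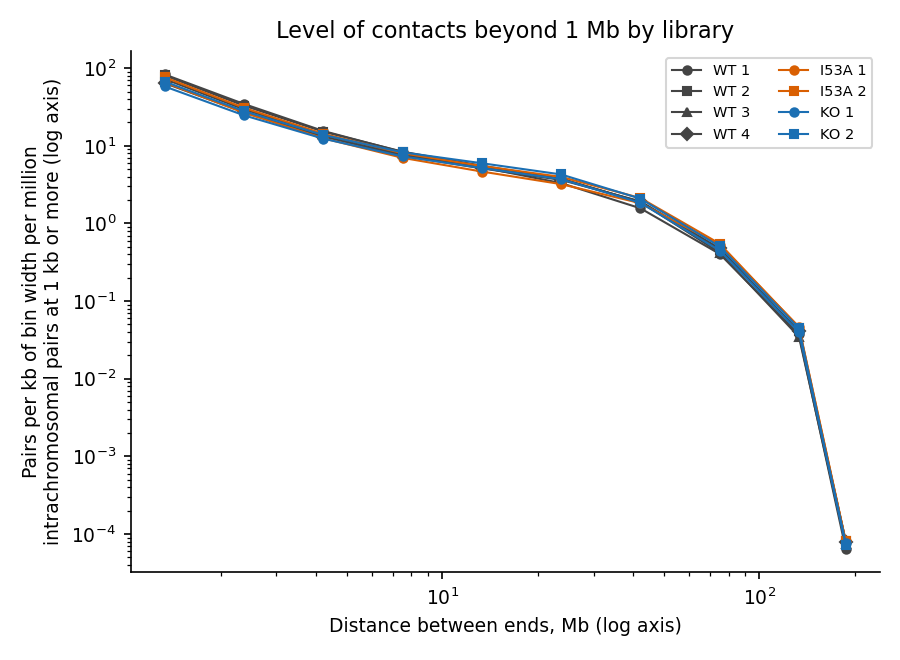
Pairs per kb of bin width for every 1000000 intrachromosomal pairs at 1 kb or more (y, log axis) against the distance between the ends in Mb (x, log axis), 1 line per library for the 10 bins with pairs. All 8 lines fall together, from 58.2 to 83.1 in the first bin to 8.14e-05 or less in the last, and the genotypes differ little beside that fall.

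The share of contacts that lay beyond 1 Mb did not separate the genotypes among pairs at 1 kb or more. Among all intrachromosomal pairs it set both RING1B lines above WT. Of the intrachromosomal pairs at 1 kb or more, 33.4%, 34.8%, 32.6% and 31.4% spanned at least 1 Mb in WT 1 to 4 (33.1% ± 1.40, SD, n = 4). The share was 30.2% and 35.0% for I53A (32.6% ± 3.42, SD, n = 2) and 30.2% and 34.4% in KO (32.3% ± 2.98, SD, n = 2). Each line had 1 library below all WT libraries and 1 within or just above their range. The difference from WT was -0.420 percentage points for I53A (exact permutation test, two-sided, p = 0.933) and -0.746 for KO (exact p = 0.667), both under the pooled SDs of 2.09 and 1.92. With 2 libraries against 4 this test cannot give a p under 0.133, with 2 against 2 none under 0.333 and with 4 against 4 none under 0.0286, so no comparison of a single line could pass 0.05. Pairs under 1 kb, which the share leaves out, made up 37.0% to 44.9% of unique pairs in the WT libraries, 30.1% and 11.7% in those of I53A and 20.3% and 27.5% in those of KO. With these in the denominator the differences turned positive, to 7.43 percentage points for I53A and 5.40 for KO (exact permutation p = 0.133 each, adjusted 0.222). All 4 libraries of the RING1B lines then lay above all 4 WT libraries, by 6.41 percentage points (exact permutation p = 0.0286, the smallest possible; adjusted 0.143).

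Within the range beyond 1 Mb, KO libraries held relatively fewer of the nearer contacts than every WT library, although no test of a line against WT could pass. The ratio of pairs at 1 to 10 Mb to pairs at 10 to 100 Mb, which is high where contacts are relatively local, was 1.31, 1.13, 1.05 and 0.963 in WT 1 to 4 (1.11 ± 0.147, SD, n = 4). It was 1.00 and 0.990 for I53A (0.997 ± 0.0104, SD, n = 2) and 0.905 and 0.899 in KO (0.902 ± 0.00422, SD, n = 2). Both KO libraries lay below every WT and I53A library, while I53A lay between WT 3 and WT 4. The KO mean differed from the WT mean by -0.209 (pooled SD 0.127, exact permutation p = 0.133, adjusted over the 5 summary values 0.333), the smallest p possible. For I53A the difference was -0.114 (exact p = 0.400), and for both lines together -0.162 (exact p = 0.0857, adjusted 0.357). I53A exceeded KO by 0.0948, against a pooled SD of 0.00793 (exact p = 0.333, the smallest possible).

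The WT spread in this ratio was wide, and WT 1 held its upper end. Without WT 1 the difference from WT was -0.144 for KO and -0.0495 for I53A. WT 1 and WT 2, which were low in rescued pairs and high in chromosome 15 reads, had the highest ratios, whereas I53A 2, also low in rescued pairs, did not exceed I53A 1. Among the 5 libraries high in rescued pairs KO differed from WT 3 and WT 4 by -0.103, whereas I53A 1 differed from them by -0.000769. Among the 3 low in rescued pairs, which hold no KO library, I53A 2 differed from WT by -0.228. Each bin was also divided by its possible pairs of bases, from the chromosome lengths, and these densities were summed in each class. The ratio of the 2 sums was on average 9.27 in WT and 7.35 in KO, a difference of -1.92. The difference was -1.91 with each chromosome weighted by its coverage in that library. The distance bins are not split by chromosome, and the part of chromosomes 11 and 15 in the ratio was not tested.

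The decay was split at 10 Mb into 2 log-log slopes, fitted by least squares over the bins to the log10 of pairs per base and the log10 of distance. A slope nearer 0 means that contact falls more slowly with distance. From 1 to 10 Mb the slope was -1.34, -1.31, -1.297 and -1.24 in WT (-1.298 ± 0.0394, SD, n = 4), -1.298 and -1.31 in I53A, against -1.20 and -1.22 in KO. Both KO libraries were shallower than every WT library, by 0.0896 on average (pooled SD 0.0345, exact permutation p = 0.133, adjusted 0.333). I53A lay inside the WT range, with a difference of -0.0042 from the WT mean.

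From 10 to 100 Mb the lines changed places. The slope was -1.47, -1.42, -1.44 and -1.35 in WT (-1.42 ± 0.0510, SD, n = 4), -1.23 and -1.31 for I53A (-1.27 ± 0.0543, SD, n = 2), against -1.40 and -1.41 in KO. Here both I53A libraries were shallower than every WT library, by 0.148 (pooled SD 0.0518, exact permutation p = 0.133, adjusted 0.333). KO lay inside the WT range, with a difference of 0.0148 (exact p = 0.667). The I53A difference was 0.160 among the libraries high in rescued pairs and 0.136 among those low in them. The KO difference at 1 to 10 Mb was 0.0624 among the libraries high in rescued pairs, the only set that holds KO.

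**Figure D2:**
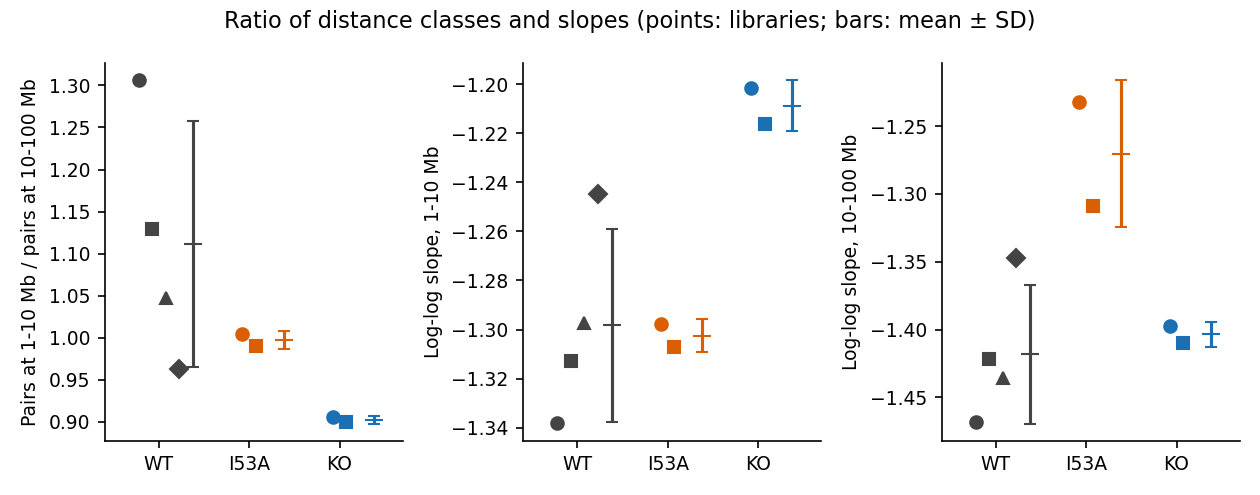
Ratio of pairs at 1 to 10 Mb to pairs at 10 to 100 Mb (left), log-log slope from 1 to 10 Mb (middle) and from 10 to 100 Mb (right) for WT, I53A and KO; each point is a library (circle 1, square 2, triangle 3, diamond 4), bars give mean ± SD, and the axes do not start at 0. KO stands apart in the left and middle panels, at 0.905 and 0.899 and at -1.20 and -1.22, and I53A in the right panel, at -1.23 and -1.31.

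The bins within the range showed where these shifts lay. Shares of the pairs at 1 Mb or more add up to 100% in each library, so a higher share in 1 bin goes with lower shares elsewhere. In the first bin, 1 to 1.778 Mb, the share was 19.4%, 18.1%, 17.3% and 15.9% in WT, 16.9% and 16.96% in I53A, against 15.0% and 15.2% in KO. The KO shares were below all others, with a difference of -2.55 percentage points from the WT mean (pooled SD 1.27). At 1.778 to 3.162 Mb it was 14.4%, 13.1%, 12.5% and 11.9% in WT, 12.2% and 12.2% in I53A, against 11.3% and 11.2% in KO, again lowest in KO.

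The next bins set both lines, or I53A alone, below WT. At 3.162 to 5.623 Mb the share was 11.5%, 10.8%, 10.5% and 10.3% in WT, 10.2% and 10.0% in I53A, against 10.1% and 9.89% in KO. All 4 libraries of the RING1B lines lay below all 4 WT libraries, with a difference of -0.704 percentage points (exact permutation p = 0.0286, the smallest possible; adjusted over the 10 bins 0.143). At 5.623 to 10 Mb it was 10.9%, 10.6%, 10.4% and 10.4% in WT, 10.2% and 10.0% in I53A, against 10.6% and 10.5% in KO. In this bin only I53A lay outside the WT range, and it lay below.

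From 10 to 31.62 Mb KO was highest. At 10 to 17.78 Mb the share was 12.3%, 12.4%, 12.6% and 12.7% in WT (12.5% ± 0.159, SD, n = 4), 12.02% and 12.2% for I53A (12.1% ± 0.129, SD, n = 2), against 13.4% and 13.5% in KO (13.4% ± 0.109, SD, n = 2). This bin had a narrow spread, with I53A differing by -0.395 percentage points from WT, below all its libraries, and KO by 0.925, above them, against pooled SDs of 0.152 and 0.149 (exact permutation p = 0.133 each). At 17.78 to 31.62 Mb the share was 13.7%, 15.1%, 15.9% and 16.0% in WT, 14.7% and 15.7% in I53A, against 17.1% and 17.2% in KO. KO exceeded the other 2 genotypes here, and I53A lay within the WT range.

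At 56.23 to 100 Mb the highest shares were in I53A. At 31.62 to 56.23 Mb the share was 11.6%, 13.3%, 14.3% and 15.1% in WT, 14.9% and 14.9% in I53A, against 15.0% and 14.9% in KO, all within the WT range. At 56.23 to 100 Mb it was 5.32%, 5.77%, 5.66% and 6.64% in WT, 7.67% and 6.86% in I53A, against 6.50% and 6.45% in KO. I53A stood above every WT library by 1.42 percentage points on average (pooled SD 0.565), and KO below WT 4. At 100 to 177.8 Mb it was 0.869%, 0.913%, 0.828% and 1.01% in WT, 1.201% and 1.01% in I53A, against 1.02% and 1.01% in KO. All 4 RING1B-line libraries again exceeded all WT libraries, by 0.157 percentage points (exact permutation p = 0.0286, adjusted 0.143), but WT 4, at 1.006%, was almost level with KO 2, at 1.008%.

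**Figure D3:**
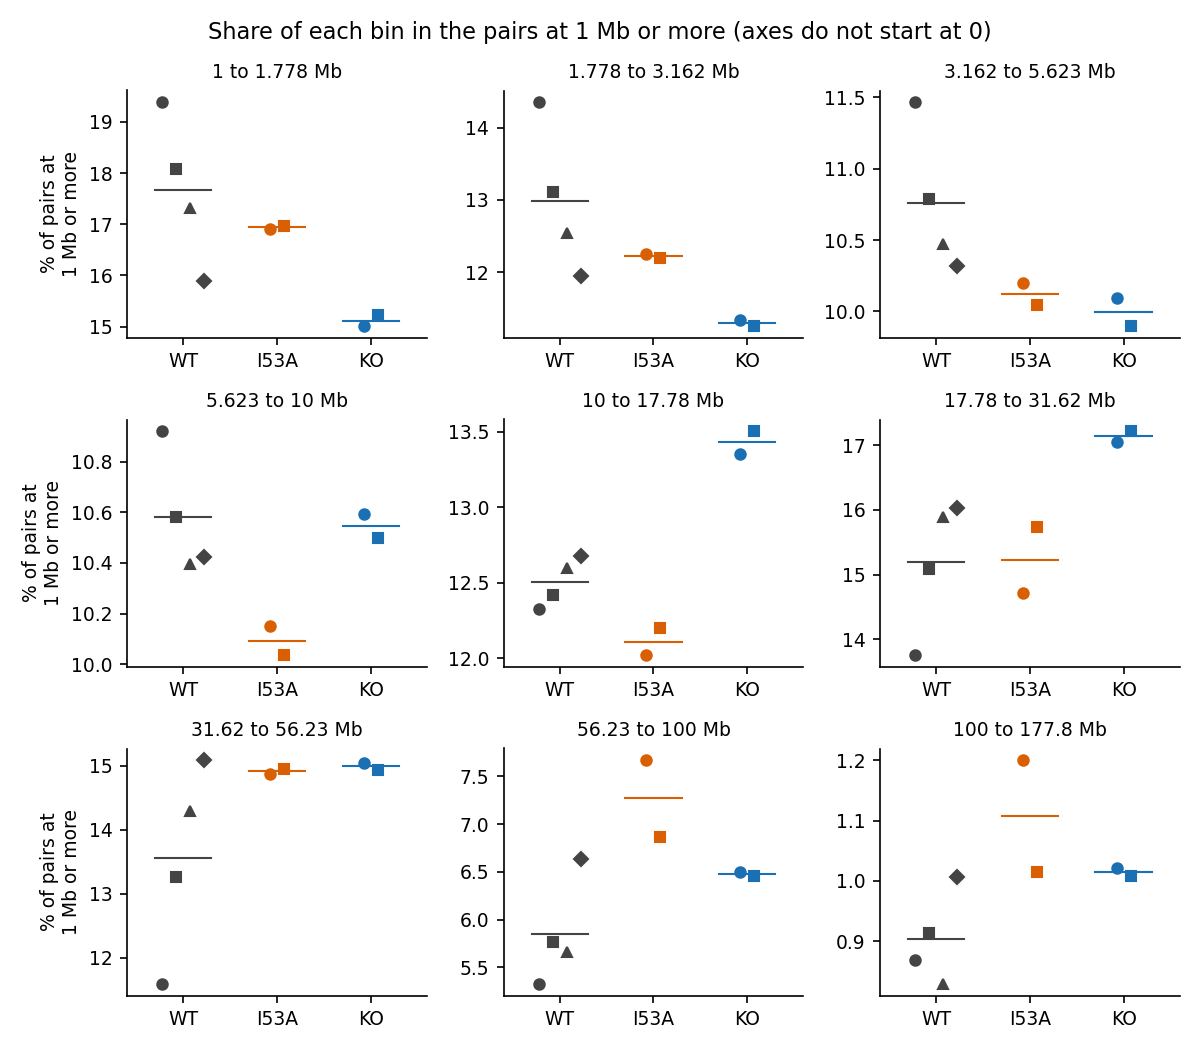
Share of each bin in the pairs at 1 Mb or more, in percent, for 9 bins from 1 to 177.8 Mb; points are libraries (circle 1, square 2, triangle 3, diamond 4), lines are group means, and the axes do not start at 0. KO is lowest at 1 to 1.778 Mb (15.0% and 15.2%) and highest at 17.78 to 31.62 Mb (17.1% and 17.2%), and I53A is highest at 56.23 to 100 Mb (7.67% and 6.86%).

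Counted over the 10 bins with pairs, the groups did not overlap in 5 for I53A against WT, with 3 lower and 2 higher, and in 6 for KO against WT, with 3 lower and 3 higher. The same count over all 22 bins, each as a share of its own side of 1 Mb, gave 22.7% for I53A (13.6% lower, 9.09% higher) and 31.8% for KO (13.6% lower, 18.2% higher). The 12 bins from 1 kb to 1 Mb contributed 0 and 1 of these. For both lines together against WT 2 of 10 bins did not overlap (9.09% of the 22), and for I53A against KO 6 of 10 (31.8%). WT 4 decided part of these counts: without it they were 8 for I53A, 8 for KO and 6 for both lines together, out of 10. Without I53A 2 all 10 bins separated I53A from KO. Among the 5 libraries high in rescued pairs 7 bins separated I53A from WT and 7 separated KO from WT. That set holds only 1 I53A library, and fewer libraries separate more easily by construction. The counts in that set and with a library left out were not made over all 22 bins. No adjusted p from the exact tests was below 0.143.

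The bin with the largest share of long-range pairs was 1 to 1.778 Mb in WT 1, WT 2, WT 3 and both I53A libraries, and 17.78 to 31.62 Mb in WT 4 and both KO libraries. Between I53A and KO the share at 10 to 17.78 Mb differed by -1.32 percentage points.

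Local slopes, taken between neighbouring bins, traced the shape of the decay. Further out, fewer chromosomes are long enough to hold a pair, so these slopes are also given per possible pair of bases. At 10 Mb the chromosomes hold 89.5% of the pairs of bases that chromosomes without ends would, at 56.23 Mb 41.5% and at 100 Mb 9.56%. Per possible pair the decay was steep at the 1.778 Mb border, with group means of -1.52 in WT, -1.55 in I53A and -1.49 in KO. It was least steep at 17.78 Mb, at -0.499, -0.436 and -0.409, and steep again at 56.23 Mb, at -1.63, -1.43 and -1.63. All 8 libraries shared this course, with their shallowest step at 17.78 Mb.

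The KO libraries lay nearest 0 where the decay began to flatten. At the 5.623 Mb border the local slope per base of bin width was -1.08, -1.03, -1.01 and -0.982 in WT, -1.01 and -1.001 in I53A, against -0.916 and -0.897 in KO. At the 10 Mb border it was -0.789, -0.722, -0.666 and -0.660 in WT, -0.706 and -0.660 in I53A, against -0.598 and -0.562 in KO. At both borders KO was shallower than every other library, by 0.122 and 0.129 from the WT means (exact permutation p = 0.133 each, adjusted over the 9 local slopes 0.300). The slope at 3.162 Mb was -1.39, -1.34, -1.31 and -1.25 in WT and -1.201 and -1.22 in KO. KO was shallower than every WT library also at the 3.162 and 17.78 Mb borders, by 0.112 and 0.0895. At the 31.62 Mb border the slope was -1.298, -1.22, -1.18 and -1.10 in WT, -0.982 and -1.09 in I53A, against -1.22 and -1.25 in KO. This border alone separated I53A from WT, by 0.167 (exact p = 0.133, adjusted 0.750).

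Of the 9 local slopes beyond 1 Mb, 1 did not overlap between I53A and WT and 4 between KO and WT, against 4.76% and 28.6% of all 21 local slopes from 1 kb upward. The 4 in KO were all shallower, against 19% of the 21. For I53A against KO the count was 6 of 9, against 42.9%, and for both lines together against WT it was 0 of 9, against 0%. The I53A count rose to 3 of 9 without WT 1 or I53A 1, and to 2 of 9 without WT 3, WT 4 or I53A 2, as fewer libraries overlap less easily. The count for both lines rose to 1 without WT 1, WT 4 or I53A 1. The counts with a library left out were not made over all 21 local slopes.

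**Figure D4:**
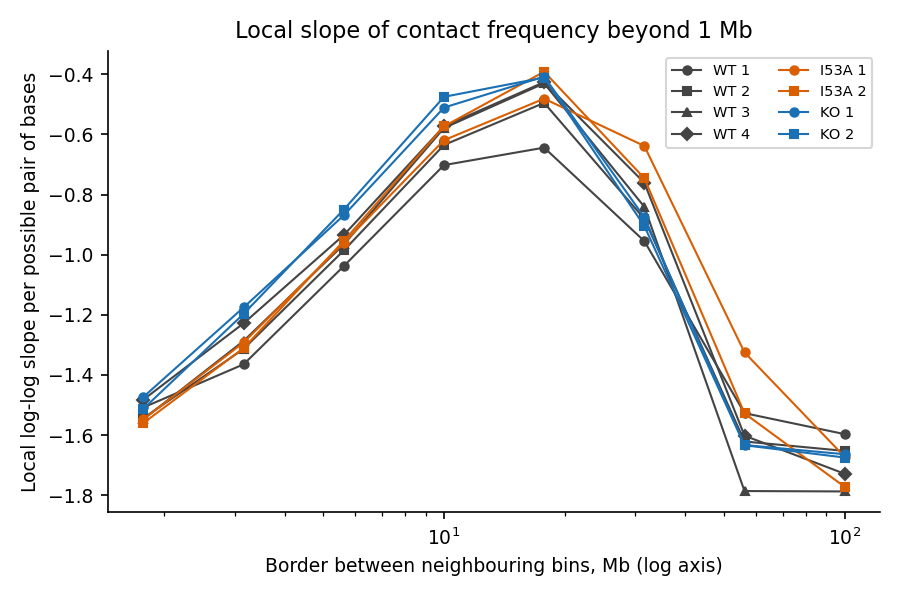
Local log-log slope per possible pair of bases (y) at the border between neighbouring bins (x, Mb, log axis), 1 line per library, for borders from 1.778 to 100 Mb. The slope is nearest 0 at 17.78 Mb in all 8 libraries, KO lies on top at 5.623 and 10 Mb, and I53A lies on top at 31.62 Mb.

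A second reference that involves no other distance is the contact between different chromosomes. For each bin the pairs per possible pair of bases were divided by the same density between chromosomes, so a value of 1 means that a locus meets its own chromosome at that distance as often as another chromosome. Over 10 to 100 Mb this fold was 14.1, 14.8, 15.2 and 15.1 in WT (14.8 ± 0.466, SD, n = 4), 15.9 and 18.2 for I53A (17.1 ± 1.67, SD, n = 2), whereas KO 1 and KO 2 reached 13.4 and 14.6 (14.02 ± 0.821, SD, n = 2). Both I53A libraries lay above all WT libraries, by 0.20 on the log2 scale (pooled SD 0.081, exact permutation p = 0.133, adjusted 0.333). Without I53A 2 the I53A difference was 0.10, and without I53A 1 it was 0.30. KO overlapped WT, with a difference of -0.079 (exact p = 0.267). The KO difference was -0.020 with chromosomes 11 and 15 left out of the contacts between chromosomes, -0.019 without KO 1 and -0.14 without KO 2. The I53A difference was 0.069 among the libraries high in rescued pairs and 0.33 among those low in them.

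By bin, KO was low at the near end and I53A high at the far end. At 1 to 1.778 Mb the fold was 438, 394, 372 and 326 in WT, 373 and 426 in I53A, against 266 and 292 in KO. Both KO libraries were below all others, with a log2 difference of -0.45 from WT. At 10 to 17.78 Mb it was 30.8, 29.9, 29.9 and 28.8 in WT, 29.3 and 33.9 in I53A, against 26.2 and 28.7 in KO, so that KO 2 lay just under WT 4. At 31.62 to 56.23 Mb it was 12.3, 13.6, 14.4 and 14.5 in WT, 15.4 and 17.6 in I53A, against 12.5 and 13.5 in KO, with I53A highest and KO inside the WT range. At 56.23 to 100 Mb it was 5.09, 5.33, 5.15 and 5.77 in WT, 7.18 and 7.31 in I53A, against 4.89 and 5.25 in KO. At 100 to 177.8 Mb it was 2.03, 2.06, 1.84 and 2.13 in WT, 2.74 and 2.64 in I53A, against 1.88 and 2.00 in KO. In these 2 bins I53A stood above WT by 0.44 and 0.42 on the log2 scale, against pooled SDs of 0.072 and 0.082, and KO stayed within or just below the WT range.

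KO was lower than every WT library in 5 of the 10 bins, those from 1 to 17.78 Mb. At 10 to 17.78 Mb this hung on a narrow gap, with a log2 fold of 4.842 in KO 2 against 4.846 in WT 4. I53A was higher than every WT library in 4 of 10, those from 31.62 Mb on, and that count was 7 without I53A 1. Over all 22 bins from 1 kb the same counts came to 45.5% lower for KO and 40.9% higher for I53A. Of the 12 bins below 1 Mb, 5 separated for each line in the same direction. The counts were therefore not particular to distances beyond 1 Mb. For I53A against KO 9 of 10 bins did not overlap, against 72.7%, and for both lines together against WT 0 of 10, against 0%. The exact p was 0.133 in each bin that separated a line from WT. These bins were examined after the value over 10 to 100 Mb had been seen.

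**Figure D5:**
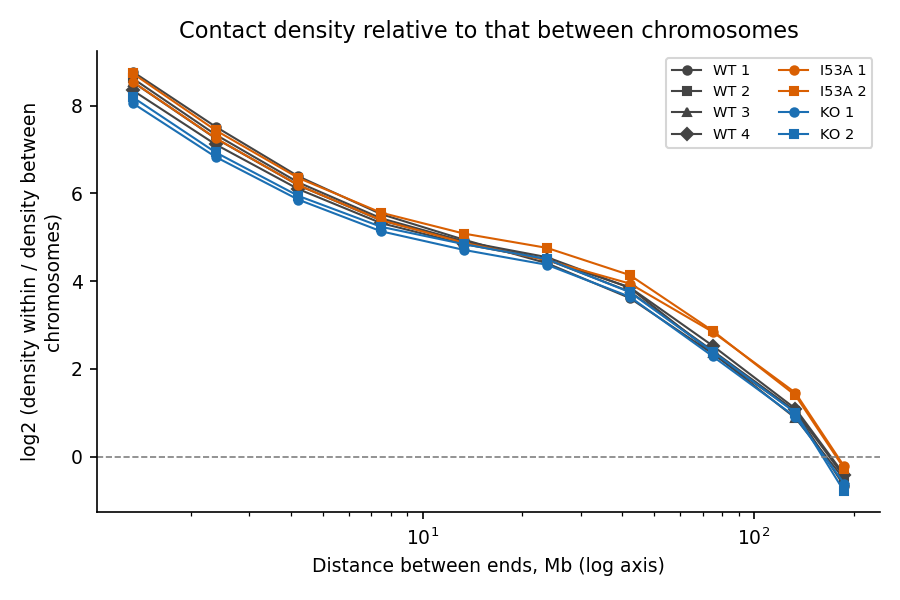
Log2 of the contact density within chromosomes over that between chromosomes (y) against distance in Mb (x, log axis), 1 line per library; the dashed line marks equal density. The last bin is drawn at the middle of the distances that chromosomes reach. KO runs lowest from 1 to 17.78 Mb, I53A runs highest beyond 31.62 Mb, and all libraries fall below the dashed line in the last bin.

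The last bins are bounded by the chromosomes themselves. Only 16 chromosomes of the mm9 assembly are longer than 100 Mb and only 2, chromosomes 1 and 2, longer than 177.8 Mb. The bin from 177.8 to 316.2 Mb held 654, 845, 547 and 864 pairs in WT, 1460 and 1785 in I53A, against 1792 and 1462 in KO. Its density over that between chromosomes was 0.630, 0.728, 0.700 and 0.752 in WT, 0.857 and 0.827 in I53A, against 0.653 and 0.576 in KO. By this count the density in the bin was below that between chromosomes in all 8 libraries. Possible pairs were counted over full chromosome lengths, including any stretch that no read can map to. Whether the far ends of chromosomes 1 and 2 met less often than different chromosomes was therefore not settled. I53A was above WT by 0.26 on the log2 scale (pooled SD 0.098, exact permutation p = 0.133).

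Beyond 316.2 Mb no pair can exist on a mouse chromosome, and the 2 further bins with an upper border held 0 pairs in every library. The open-ended bin, from 1000 Mb upward, held 0 pairs in all 8 libraries. No chromosome is that long, so this count was fixed in advance. For scale, 3 pairs would be 1.72e-05% of the pairs at 1 Mb or more in WT 3 and 5.31e-06% in I53A 2. These are the shallowest and deepest libraries beyond 1 Mb.

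The orientation of the 2 ends carries no information at these distances if they are ligated at random. From 1 to 177.8 Mb each of the 4 orientations held 24.8% to 25.1% of a bin's pairs, and the 95% Wilson interval held 25% in 261 of 288 cases. In the bin from 177.8 Mb the range was 19.2% to 28.5%, with 25% inside the interval in 31 of 32 cases. From 100 kb to 1 Mb the range was 24.9% to 25.1%, with 25% inside in 104 of 128. Both there and from 1 to 177.8 Mb, fewer than 95% of the intervals held 25%. From 1 to 10 kb the range was 23.2% to 26.7%, with 25% inside in 35 of 128. Self-ligated and undigested fragments can add pairs at such short distances, but their part was not tested.

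Raw pairs per bin were also tested with edgeR's quasi-likelihood test over the 22 bins from 1 kb, scaled by the pairs at 1 kb or more. At a Benjamini-Hochberg adjusted p of 0.05 it called 0 of the 10 bins beyond 1 Mb in each of the 4 comparisons, against 0% of all 22. At an unadjusted p under 0.05 the counts were 1 with I53A, 0 with KO and 1 with both lines set against WT, and 0 between the lines. Over all 22 bins these counts were likewise 1, 0, 1 and 0. DESeq2 called 0 in each comparison. The most positive value of I53A over WT was at 56.23 to 100 Mb, at 0.29 ± 0.10 log2 units (SE; edgeR, adjusted p = 0.515); the most negative value was at 3.162 to 5.623 Mb, -0.11 ± 0.10 (edgeR adjusted p = 0.864). In KO the most positive value was at 17.78 to 31.62 Mb, 0.14 ± 0.11, and the most negative value at 1 to 1.778 Mb, -0.26 ± 0.13 (SE, each with an edgeR adjusted p of 0.661). For both lines together they were 0.20 ± 0.084 at 56.23 to 100 Mb and -0.17 ± 0.097 at 1.778 to 3.162 Mb (SE, each with an edgeR adjusted p of 0.719). I53A minus KO gave 0.18 ± 0.14 at 1 to 1.778 Mb and -0.15 ± 0.12 at 17.78 to 31.62 Mb (SE, each with an edgeR adjusted p of 0.837). Single libraries moved several of these values. The most negative I53A value was -0.016 without I53A 1 and -0.21 without I53A 2. The most positive KO value was 0.24 without KO 1 and 0.039 without KO 2, and the most negative was -0.16 without KO 1. Over left-out libraries I53A minus KO ran from 0.065 (without I53A 2) to 0.29 (without KO 2) in the first of its bins, and from -0.32 (without I53A 2) to -0.0065 (without I53A 1) in the other. The median log2 change over the 10 bins was -0.036 for I53A and 0.032 for KO, beside -0.0024 and 0.067 over all 22 bins. This scale includes how many pairs lie beyond 1 Mb at all.

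With only the 10 bins in the fit and scaling by their own total, edgeR called 0 bins in the comparisons of I53A, KO and both lines with WT, which had 2, 4 and 5 bins at an unadjusted p under 0.05. It called 1 for I53A against KO (10% of the 10 tested), at 10 to 17.78 Mb, where the log2 difference was -0.15 ± 0.031 (SE, edgeR adjusted p = 0.0196). This call was lost without WT 2 (edgeR adjusted p = 0.0730), without WT 3 (0.0569) and without any 1 of the I53A or KO libraries. Without WT 4 the same fit called 2 bins for I53A, 7 for KO, 6 for both lines together and 1 for I53A against KO. Without WT 1 it called 0, 4, 0 and 2. Whether a bin passed in this fit therefore rested on which WT libraries were kept.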

How the data were processed

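Hi-C was measured in 8 libraries of mouse embryonic stem cells. The authors deposited 409 statistics per library, all raw counts of unique read pairs, pair types, chromosome pairs and distance bins; the build was mm9, per the submitters' processing notes, and the aligner and its filters are not given in the sources used here. The per-library statistics equalled the series table in all 409 cases, and 3 columns of genotype sums were not used. Whether the test and deep sequencing runs were pooled is not stated.

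Orientations were summed per bin. Possible pairs of bases came from the chromosome lengths of NCBIM37, the same assembly. Each group holds the libraries its labels name. Group means were compared by exact permutation tests (Python 3.11.15, numpy 2.4.6, pandas 2.3.3), two-sided as 2 times the smaller tail, with Benjamini-Hochberg adjustment over 5 summary values, 10 bins or 9 local slopes. Counts per bin were tested with edgeR 4.0.16 (R 4.3.3) in 1 fit of all 8 libraries, for the 22 bins of 1 kb and over whose mean count reached 10, at an adjusted p of 0.05; DESeq2 1.42.0 was an alternative. The code was tested on simulated data, with known KO changes of 0.2, 0.5 and 1 log2 units. With 22 bins edgeR recovered 4, 48 and 80 of 80 changes, with 1, 4 and 8 false calls in 360 unchanged bins. With 10 bins it recovered 10, 39 and 40 of 40, with 2, 6 and 59 false calls in 160. Most changes of 0.2 were therefore missed. The bins named from edgeR are, per comparison, those with its most positive and most negative log2 change. The members and tests were chosen with earlier results of these data known. The alternatives were other denominators, borders, orientations, scalings, blocks and left-out libraries.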

Additional observations from a re-analysis of the deposited data

Results flagged for a closer look

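In 4 of 24 values both I53A libraries lay on one side of the WT mean and both KO libraries on the other. How many would do so by chance was not computed, and the 24 values depend on each other. The log2 density at 10 to 100 Mb over that between chromosomes differed by 0.28, I53A above. The share at 10 to 17.78 Mb of the pairs at 1 Mb or more differed by -1.32 percentage points, I53A below. The local slope at the 1.778 Mb border differed by -0.0607, steeper in I53A, and that at the 31.62 Mb border by 0.198, shallower in I53A. The exact permutation p of such a difference with 2 libraries against 2 cannot go below 0.333. In none of the 24 values did 1 WT library stand far from the other 3, where chance alone would give about 1.2.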

How the results depend on the processing

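The 5 summary values were recomputed under 242 settings; 218 kept their direction, 24 reversed it and 0 passed the threshold. The share beyond 1 Mb reversed most: with all intrachromosomal pairs as denominator it rose by 7.43 (I53A), 5.40 (KO) and 6.41 percentage points (both lines), and with interchromosomal pairs added by 0.169 for I53A. Among libraries low in rescued pairs it was 0.977 for I53A and for both lines; among those high in them 0.273 for KO and -2.09 for I53A against KO. Leaving out single libraries it ran from -2.84 to 2.00 for I53A, -2.86 to 1.36 for KO, -1.44 to 0.175 for both lines and -2.09 to 2.74 for I53A against KO. The I53A slope difference at 1 to 10 Mb turned to 0.0183 with low rescued pairs and ran from -0.0175 to 0.0136 over left-out libraries; that of KO at 10 to 100 Mb turned to -0.0119 with high rescued pairs and ran from -0.00178 to 0.0384. The density over that between chromosomes, both lines against WT, turned to -0.16 at 1 to 10 Mb and -0.051 with high rescued pairs, and ran from -0.019 to 0.13. The cause was not tested.

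Same-numbered libraries share only a number, with 2 pairs per comparison: their deviations over 22 bins correlated at 0.769 (WT, I53A), 0.775 (WT, KO) and 0.976 (I53A, KO), but at -0.406, -0.555 and 0.620 over the 10 bins scaled by their total. With the replicate block edgeR called 5 of the 10 bins for I53A, 5 for KO, 5 for both lines and 0 for I53A against KO. Over all 22 bins the same fit called 10, 12, 12 and 0, so the calls were not particular to distances beyond 1 Mb. The block turned the I53A slope difference at 1 to 10 Mb to 0.0230. With the block and scaling by the 10 bins' total, edgeR called 6, 6, 6 and 1 of the 10. With that scaling, the rescued share as a block gave 1 call for I53A, and the libraries high in rescued pairs gave 1 (I53A), 2 (KO) and 2 (I53A against KO).

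Chosen after seeing the data were that scaling with blocks and left-out libraries, the coverage weights and the recount of separated bins. Among the libraries high in rescued pairs the separated bin shares numbered 10 for I53A against KO, the local slopes 7 for I53A, 7 for KO and 2 for both lines, and the densities over that between chromosomes 9 for I53A; same-strand orientations gave 1 bin share for both lines. Over left-out libraries separated bin shares ranged from 5 to 8 (I53A), 6 to 8 (KO), 2 to 6 (both lines) and 6 to 10 (I53A against KO); local slopes from 1 to 3, 4 to 5, 0 to 1 and 7 to 8; densities from 4 to 7, 5 to 7, 0 to 0 and 9 to 10. Fewer libraries separate more easily by construction, and the set high in rescued pairs holds only 1 I53A library. These recounts were not made over all 22 bins. Counting error was at most ± 0.0177 percentage points of a bin's share.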
